A study of Mus musculus with 2 samples.

Results

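The genes described here encode secreted factors that act on blood and lymphatic vessels, and the accessory subunits through which one of them signals. They are Vegfa, Vegfb, Vegfc and Pgf of the vascular endothelial growth factor (VEGF) family, the angiopoietin-like genes Angptl2 and Angptl4, the peptide hormone gene Adm, and the receptor activity modifying protein genes Ramp1, Ramp2 and Ramp3. They were chosen by symbol: every probe set (a group of short oligonucleotides that together report 1 transcript) counted if the platform annotation gave it exactly 1 gene symbol and that symbol was one of these 10. This found 16 probe sets for 9 of the 10 genes, among 18194 genes in all. Angptl2 had no such probe set in the annotation used here and has no value below.

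Expression was measured on Affymetrix mouse arrays in Ebf2-/- cells (1 array) and Ebf2+/- cells (1 array), prepared as osteoblastic cells from tibiae and femora of C57Bl/6 embryos at embryonic day 18.5. The protein made from Ebf2 is a DNA-binding regulator, one of the early B cell factors, and going by its title the study asked how other cells keep haematopoietic stem cells in balance. Both preparations carried an Ebf2-lacZ marker: the cells were loaded with FDG, a substrate that turns fluorescent when the lacZ product cleaves it, sorted, and expanded in culture without passaging in alpha MEM with 10% fetal calf serum. The control was thus a heterozygote, and wild-type cells were not analysed here. The labels speak of 3 mice per genotype, and pooling of their RNA is not stated. With 1 array per genotype there is no spread between animals or cultures, so no test was made and each difference is described by its size, with 2-fold as the size at which a gene is called higher or lower.

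In the VEGF family, VEGFA is the main growth factor of blood vessel endothelium and acts through the receptors encoded by Kdr and Flt1. PlGF (from Pgf) and VEGFB bind the Flt1 receptor, whereas VEGFC acts mainly through the Flt4 receptor and is known for driving the growth of lymphatic vessels. Adrenomedullin, the product of Adm, is a vasodilator peptide that needs a receptor pair: the calcitonin receptor-like receptor (from Calcrl) responds to adrenomedullin when it is joined by RAMP2 or RAMP3, and to calcitonin gene-related peptide when it is joined by RAMP1. ANGPTL4 inhibits lipoprotein lipase, and its gene is a known target of the fatty acid sensing PPAR receptors. In bone, VEGFA is known for coupling vessel ingrowth to bone formation, and angiopoietin-like proteins are known to support haematopoietic stem cells in culture.

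Promoter sequences are shown for 3 of the genes that were higher in the Ebf2-/- cells (Vegfc, Adm and Ramp1) and, beside them, for Vegfa, which was under 2-fold, so that letters shared by the higher genes can be told from letters that Vegfa also holds. Each is the 250 bases before the annotated start site (the most upstream one where several are listed), 5′ to 3′ on the strand of the gene, from RefSeq (GRCm38.p6). Capitals mark CCCNNGGG, the core of the motif bound by EBF proteins, and ACGTG or GCGTG, the core bound by hypoxia-inducible factor, on either strand.
Vegfc, chr8:54077282-54077531, plus strand: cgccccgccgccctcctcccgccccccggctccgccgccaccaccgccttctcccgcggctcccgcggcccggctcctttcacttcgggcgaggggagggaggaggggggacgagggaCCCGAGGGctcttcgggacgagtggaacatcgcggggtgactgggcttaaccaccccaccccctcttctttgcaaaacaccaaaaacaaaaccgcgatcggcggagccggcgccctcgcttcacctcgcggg
Adm, chr7:110627407-110627656, plus strand: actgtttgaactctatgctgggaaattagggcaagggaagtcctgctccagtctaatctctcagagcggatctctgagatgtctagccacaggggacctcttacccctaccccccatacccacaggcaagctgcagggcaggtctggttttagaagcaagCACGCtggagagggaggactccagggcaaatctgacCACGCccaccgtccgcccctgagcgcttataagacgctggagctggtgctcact
Ramp1, chr1:91179572-91179821, plus strand: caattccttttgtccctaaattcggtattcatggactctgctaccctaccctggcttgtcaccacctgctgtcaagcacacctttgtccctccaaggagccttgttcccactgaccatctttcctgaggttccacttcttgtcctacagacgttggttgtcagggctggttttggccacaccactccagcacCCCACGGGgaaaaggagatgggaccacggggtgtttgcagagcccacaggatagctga
Vegfa, chr17:46032378-46032627, minus strand: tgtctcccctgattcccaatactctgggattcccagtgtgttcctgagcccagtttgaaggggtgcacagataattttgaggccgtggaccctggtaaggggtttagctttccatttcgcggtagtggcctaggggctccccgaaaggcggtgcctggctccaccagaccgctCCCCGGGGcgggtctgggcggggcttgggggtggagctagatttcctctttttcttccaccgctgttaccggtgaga
The EBF core occurred once in the Vegfc window (CCCGAGGG), once in the Ramp1 window (CCCACGGG) and not in the Adm window. It also occurred once in the Vegfa window (CCCCGGGG), so it was found in windows of genes called higher and in that of a gene that was not. Among the 32544 promoter windows used for comparison, with duplicates and a chromosome left out, 11.9% held it. The hypoxia core occurred 2 times in the Adm window, as CACGC on the strand shown, and not in the other 3 windows, against 38.8% of the comparison windows. These shares were not matched for GC content. The median GC content of the comparison windows was 52.4%, against 71.6% for Vegfc, 56.8% for Adm, 54% for Ramp1 and 59.2% for the Vegfa window shown. No window shown held both motifs. Of the windows not shown, those of Vegfb (under 2-fold) and Ramp3 (not measured) held 2 hypoxia cores each and 0 EBF cores. That of Angptl2 held neither, and the most upstream one of Pgf held 1 hypoxia core and 1 EBF core. A second, downstream start site listed for Vegfa, not shown, has a window with 2 hypoxia cores and 0 EBF cores, so the contrast with Vegfa depends on the start site. Of the 10 genes, 8 had an entry in the promoter table, and Angptl4 and Ramp2 did not. A match is a description of the letters and not a binding site.

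A background floor was set for each array on 86 probe sets of olfactory, taste and vomeronasal receptor genes, assumed to be at background here. It was their 95th percentile, 23.8 on the Ebf2-/- and 17.8 on the Ebf2+/- array, in the deposited MAS5 signal units. A probe set above the floor on at least 1 array is called measured, values under the floor were raised to it for the ratio, and the gene is represented by its brightest probe set. Of the 16 probe sets, 11 were above the floor on both arrays, 1 on the heterozygote array only, and 4 on neither. How precise any value is depends on the number of arrays, 1 per genotype. Within the arrays, the pooled SD of the log2 ratio among probe sets of the same gene was 0.44 (a factor of 1.36, from 4119 genes), which leaves out the variation between animals.

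Of the 8 measured genes, 5 were at least 2-fold higher in Ebf2-/- than in Ebf2+/- cells, namely Ramp1, Ramp2, Vegfc, Angptl4 and Adm, and 0 were at least 2-fold lower. Over all 11785 measured genes, 6.30% were called higher and 3.46% lower by the same rule. The genes were chosen with earlier results of these data known. The shares and medians here are therefore set side by side as a description and not as a test. The median log2 ratio of the 8 genes was 1.17, with Pgf entered at its bound, against 0.03 for all measured genes. By probe set, 7 of the 12 measured were at least 2-fold higher and 0 lower, against 6.58% and 3.61% of 20401 measured probe sets. Vegfa and Vegfb were under 2-fold, Pgf had a bound in the lower direction that did not reach 2-fold, and Ramp3 was not measured.

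**Figure D1:**
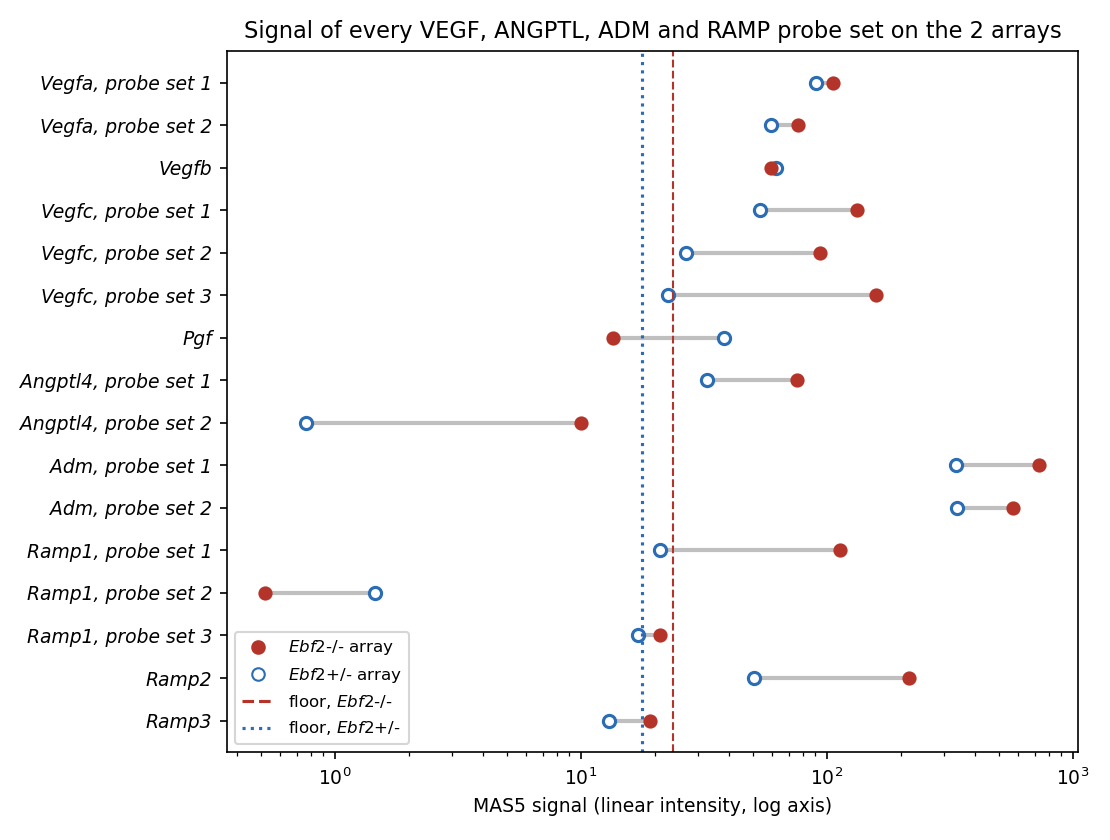
MAS5 signal (horizontal log axis, linear intensity units) of the 16 probe sets on the Ebf2-/- array (filled red) and the Ebf2+/- array (open blue), with the floor of each array as a vertical line; each point is 1 array. All 3 Vegfc probe sets and the Ramp2 probe set lie to the right in Ebf2-/- cells, while the 2 Vegfa probe sets and the Vegfb probe set nearly coincide between the arrays.

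The VEGF ligands differed from each other. Vegfa had a signal of 106 in Ebf2-/- cells, against 90.8 in Ebf2+/- cells, by the probe set that stands for the gene. Its second probe set, which covers alternative transcripts, had 76.4 in Ebf2-/- cells, against 59.4 in Ebf2+/- cells. The ratios, 1.17-fold and 1.29-fold higher, were smaller than the factor of 1.36 between probe sets of one gene. Vegfb, whose product binds the Flt1 receptor, had 59.2 in Ebf2-/- cells, against 62.0 in Ebf2+/- cells, a log2 ratio of -0.07. Both arrays therefore gave Vegfa and Vegfb nearly the same signal.

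Vegfc, the lymphatic growth factor, was higher in the Ebf2-/- cells by all 3 of its probe sets. The probe set that stands for the gene had 133 in Ebf2-/- cells, against 53.8 in Ebf2+/- cells, 2.47-fold higher (log2 ratio 1.30). The second had 94.0 in Ebf2-/- cells, against 26.7 in Ebf2+/- cells (3.52-fold), and the last had 158 in Ebf2-/- cells, against 22.7 in Ebf2+/- cells (6.98-fold). The direction was shared by the 3 probe sets, but the size was not: their log2 ratios had an SD of 0.76, above the 0.44 typical of a gene. The second and the last had heterozygote signals only just above the floor of 17.8, and the second is of a kind (_x_at) that can also detect related sequences. With a pseudocount of 50, which damps ratios of dim signals, the log2 ratio of Vegfc was 0.82, under 2-fold. Of the 11785 measured genes, 407 had a higher ratio than Vegfc.

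Pgf, which encodes placental growth factor, went the other way. Its single probe set had 13.5 in Ebf2-/- cells, below the floor, against 38.3 in Ebf2+/- cells. It was thus at least 1.61-fold lower in the Ebf2-/- cells, a bound that does not reach 2-fold and does not place the difference under it. The bound depends on the floor: the log2 ratio of Pgf was -0.69 as reported, -1.11 after lowess scaling, -1.12 with the array median as floor and -1.50 with no floor, and these 3 alternatives put it at least 2-fold lower. Vegfd, the VEGF family ligand closest in action to Vegfc and not one of the 10 genes, had 1381 in Ebf2-/- cells, against 311 in Ebf2+/- cells, 4.44-fold higher. Of the 5 VEGF family ligands measured, Vegfc and Vegfd were at least 2-fold higher, Vegfa and Vegfb were under 2-fold, and Pgf had only the bound above.

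**Figure D2:**
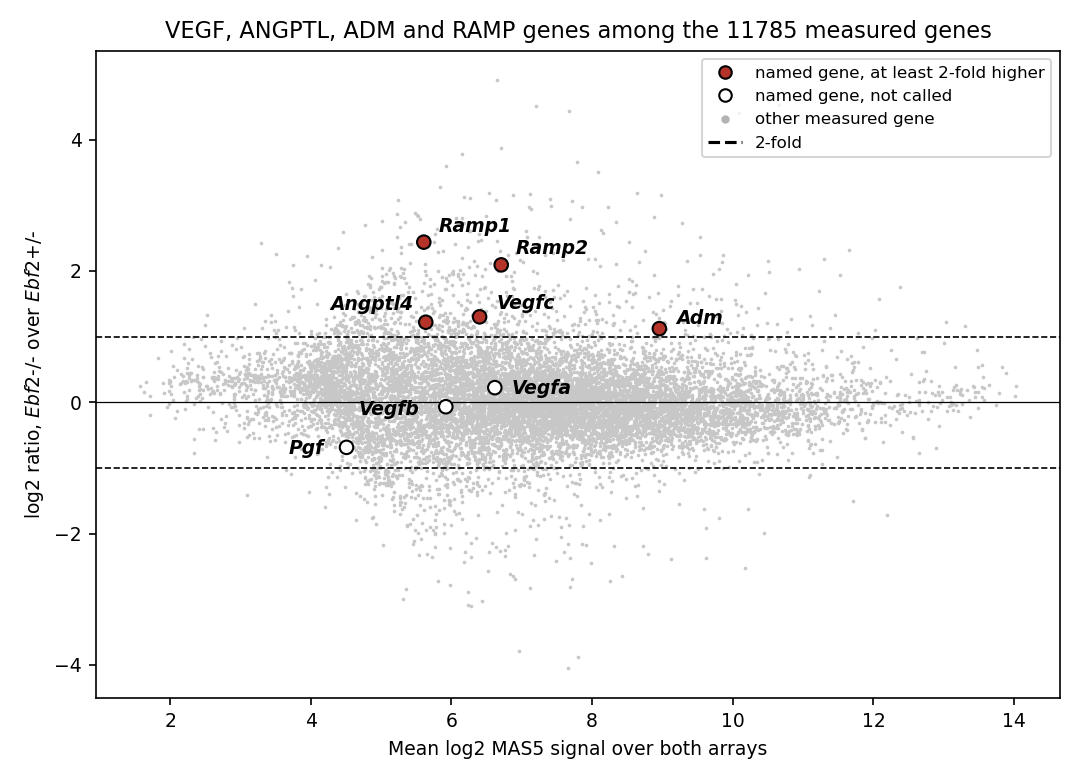
Log2 ratio of Ebf2-/- over Ebf2+/- (vertical axis) against the mean log2 MAS5 signal over both arrays (horizontal axis) for the 11785 measured genes (grey) and the 8 measured VEGF, angiopoietin-like, adrenomedullin and RAMP genes; dashed lines mark 2-fold. Ramp1 and Ramp2 lie above 2 on the log2 scale, Vegfc, Angptl4 and Adm lie between 1 and 2, and Vegfa and Vegfb lie in the middle of the grey cloud.

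The receptors of these ligands were mostly at background in the same cells. All 4 probe sets of Flt1 were below the floor on both arrays. Kdr had 3.32 in Ebf2-/- cells, below the floor, against 33.9 in Ebf2+/- cells, at least 1.42-fold lower. The probe set standing for Flt4, the VEGFC receptor, was below the floor on both arrays, and its other one, at 21.1 on the heterozygote array, was above the floor there only and did not exceed the floor of the knockout array. The neuropilins, co-receptors for VEGF and semaphorins, were well above the floor. Nrp1 had 1123 in Ebf2-/- cells, against 682 in Ebf2+/- cells, and its 4 probe sets were all higher, by 1.65-fold to 2.27-fold. Nrp2 had 249.9 in Ebf2-/- cells, against 251 in Ebf2+/- cells, and its other probe sets were 1.28-fold to 1.62-fold higher. By their representative probe sets, 0 of the 3 measured genes of this list of 5 were called higher or lower, with Kdr known only by its bound. The median log2 ratio was -0.01, the value of Nrp2, and 0.41 as a mean over probe sets.

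Angptl4 was higher in the Ebf2-/- cells by the probe set that stands for it, with 75.9 in Ebf2-/- cells, against 32.6 in Ebf2+/- cells (2.33-fold, log2 ratio 1.22). Its second probe set read 9.99 on the Ebf2-/- and 0.761 on the Ebf2+/- array, both below the floor, so no fold is given for it. The value of Angptl4 therefore rests on 1 probe set, of the kind (_s_at) whose oligonucleotides can match more than 1 transcript. Its log2 ratio was 0.61 with a pseudocount of 50, 0.60 with a floor of 50 on both arrays and 0.82 as a mean over its probe sets, under 2-fold in these 3 settings. The mean enters the second probe set at the ratio of the floors, 23.8 over 17.8, and not at a measured ratio. Of the related genes, Angptl1 had 88.0 in Ebf2-/- cells, against 31.2 in Ebf2+/- cells (2.82-fold higher), and Angptl6 had 78.1 in Ebf2-/- cells, against 53.0 in Ebf2+/- cells (1.47-fold). Angptl8 was measured in Ebf2-/- cells only, at 25.2. Of this list, 1 of 3 measured genes was called higher and 0 lower.

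Lpl, the gene of the lipoprotein lipase that ANGPTL4 inhibits, had 1803 in Ebf2-/- cells, against 611 in Ebf2+/- cells, 2.95-fold higher. Itga5, which encodes the fibronectin receptor subunit reported to bind ANGPTL2, had 267 in Ebf2-/- cells, against 55.2 in Ebf2+/- cells, 4.84-fold higher. Lmf1, a factor needed for lipase maturation, was 1.81-fold higher, and in this list of receptors and lipase partners 2 of 7 measured genes were called higher and 0 lower. The PPAR list, whose receptors are known regulators of Angptl4, was split, with 2 of 7 measured genes called higher and 1 called lower (median log2 ratio 0.12). Pparg, the adipogenic PPAR, had 92.0 in Ebf2-/- cells, against 42.9 in Ebf2+/- cells (2.15-fold higher). Pdk4, a kinase that restrains glucose oxidation, was 2.73-fold higher, whereas the fatty acid transporter gene Cd36 was at least 4.24-fold lower. The adipocyte marker list includes Lpl and Pparg. All 5 measured of its 8 genes with a probe set were at least 2-fold higher in Ebf2-/- cells, against 6.30% of all measured genes. The summed signal of the list was 2888 in Ebf2-/- cells, against 733 in Ebf2+/- cells. Fabp4, a fatty acid binding protein, had 552 in Ebf2-/- cells, against 18.4 in Ebf2+/- cells, and the adipogenic regulator Cebpa had 349.6 in Ebf2-/- cells, against 39.2 in Ebf2+/- cells. Adipoq, the adiponectin gene, was measured in Ebf2-/- cells only (at least 4.19-fold higher), and Lep, Cidec and Retn were below the floor on both arrays. The part of adipocytes in the Angptl4 signal was not tested, and more cells of a type and more RNA per cell cannot be told apart on these arrays.

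By their representative probe sets, Adm and the measured RAMP genes, Ramp1 and Ramp2, were each higher in Ebf2-/- cells. Adm had 733 in Ebf2-/- cells, against 337 in Ebf2+/- cells, 2.18-fold higher (log2 ratio 1.12). Its second probe set, of the _x_at kind, had 573 in Ebf2-/- cells, against 338 in Ebf2+/- cells, which is 1.69-fold and under the 2-fold size. Both probe sets were higher and far above the floor, but the call at 2-fold is borderline: the log2 ratio of Adm was 0.94 as a mean over its probe sets and 0.95 under spike-in scaling. Adm2, a related peptide gene, had 31.7 in Ebf2-/- cells, against 18.3 in Ebf2+/- cells (1.74-fold), and its heterozygote signal was barely above the floor of 17.8.

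Ramp2, the subunit that joins the Calcrl receptor to form the adrenomedullin receptor, had 216 in Ebf2-/- cells, against 50.6 in Ebf2+/- cells. That is 4.27-fold higher (log2 ratio 2.09), and 104 of the 11785 measured genes had a higher ratio. The ratio stayed above 2-fold in all 10 settings tried, from 1.40 with a pseudocount of 50 to 2.09 on the log2 scale. A single probe set carries the ratio, and it lies above each floor on both arrays. The settings that change the floor or the probe set rule therefore could not move it, and only the scalings and the pseudocount could. A further 2 probe sets are annotated to both Ramp2 and its neighbour Vps25 and were left out by the selection rule. They had 259 and 365 in Ebf2-/- cells, against 326 and 413 in Ebf2+/- cells, and thus were 1.26-fold and 1.13-fold lower. The probe set annotated to Vps25 alone was dim, with 27.2 in Ebf2-/- cells, against 16.2 in Ebf2+/- cells, where it was below the floor (at least 1.53-fold higher). Which of the 2 transcripts the shared probe sets report was not tested.

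Ramp1, the subunit that makes Calcrl a receptor for calcitonin gene-related peptide, was higher in Ebf2-/- cells by 1 of its 3 probe sets. This representative probe set had 114 in Ebf2-/- cells, against 20.9 in Ebf2+/- cells, 5.42-fold higher (log2 ratio 2.44), and 62 measured genes had a higher ratio. Its signal in Ebf2+/- cells barely passed the floor of 17.8, so the size of the ratio is set largely by a dim value: the log2 ratio of Ramp1 was 1.21 with a pseudocount of 50, 1.18 with a floor of 50, and 1.09 as a mean over its probe sets, in each case below that of Ramp2. Its other 2 probe sets were below the floor on both arrays, with 20.9 and 0.522 in Ebf2-/- cells, against 17.1 and 1.46 in Ebf2+/- cells. In the mean of 1.09 they are entered at the ratio of the floors, 23.8 over 17.8. That value is thus not a mean of measured ratios, and it depends on the floors. Ramp3, the other adrenomedullin receptor subunit, had 19.2 in Ebf2-/- cells, against 13.1 in Ebf2+/- cells, below the floor on both, so no fold is given. Of the 3 RAMP genes, 2 were measured and both were at least 2-fold higher.

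Calcrl itself, the receptor with which the RAMP proteins pair, was dim. Its brightest probe set had 49.5 in Ebf2-/- cells, against 18.6 in Ebf2+/- cells, 2.66-fold higher, and the other 2 were below the floor on both arrays. In the list of calcitonin family receptors and ligands, 1 of 4 measured genes was called higher and 0 lower (median log2 ratio 0.30). Crcp, which encodes a component of the receptor complex, was 1.26-fold lower. Calcr, Calcb and Iapp were below the floor on both arrays.

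**Figure D3:**
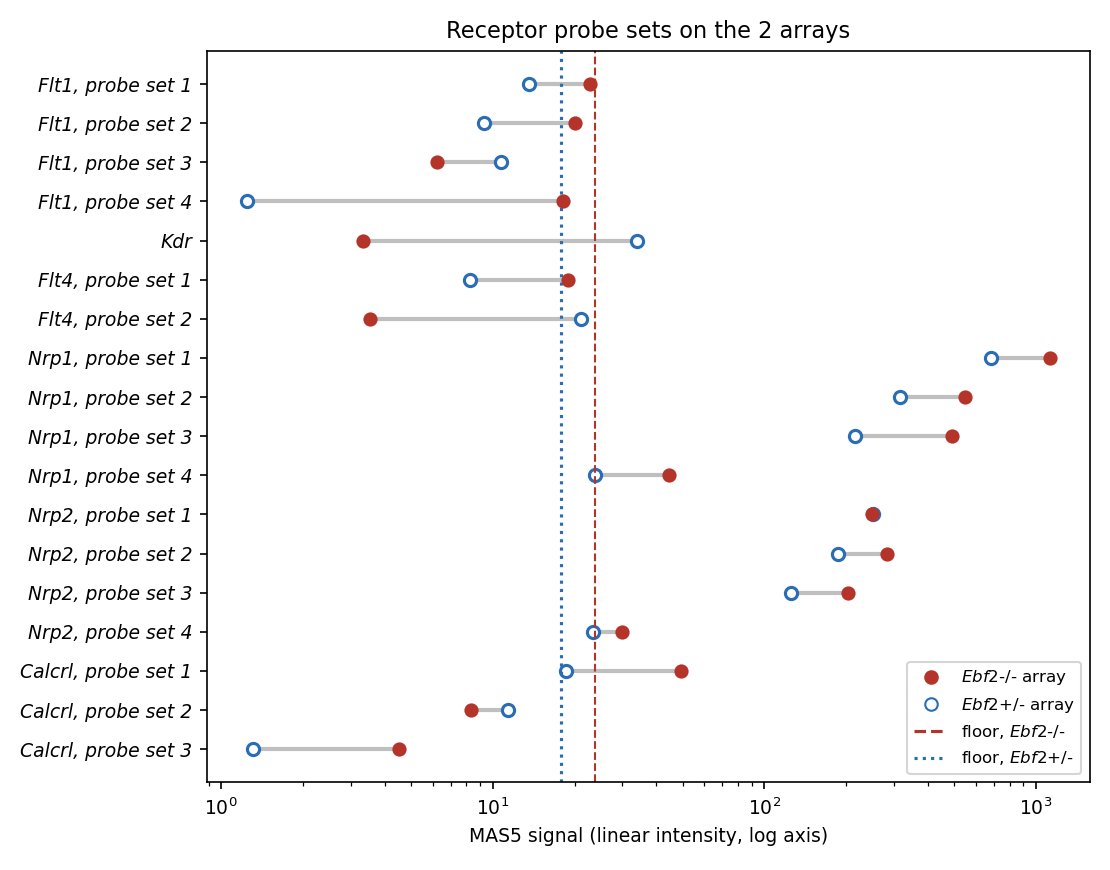
MAS5 signal (horizontal log axis, linear intensity units) of every probe set of the VEGF receptor and co-receptor genes and of Calcrl on the Ebf2-/- array (filled red) and the Ebf2+/- array (open blue), with the floor of each array as a vertical line; each point is 1 array. The Nrp1 and Nrp2 probe sets lie to the right of the floor of their own array, the Flt1 probe sets to the left of the floor of their own array, and 1 of the 3 Calcrl probe sets passes the floor on both arrays.

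Ramp2 is known to be abundant in endothelium, so endothelial markers were set beside it. Of 15 with a probe set, 12 were below the floor on both arrays, among them the defining genes Pecam1 and Cdh5. Of the 3 measured, 0 were called higher or lower, and the list had a summed signal of 540.1 in Ebf2-/- cells, against 448 in Ebf2+/- cells, most of it from Eng, which stromal cells also express. Of the TIE receptor and angiopoietin list, Tek was measured in Ebf2-/- cells only, at 46.5 (at least 2.61-fold higher), and Angpt1, a ligand of Tek, had 96.3 in Ebf2-/- cells, against 51.5 in Ebf2+/- cells (1.87-fold). Pericyte and smooth muscle markers were split, with 3 of 10 measured called higher and 1 called lower (summed signal 21982 in Ebf2-/- cells, against 17521 in Ebf2+/- cells). Those with the largest ratios were the channel subunit genes Abcc9 and Kcnj8, at least 6.53-fold and at least 3.32-fold higher, and Mcam, at least 2.17-fold lower. Myh11 and Des were below the floor on both arrays. The part of endothelial cells and that of pericytes in the Ramp1, Ramp2 and Adm signals were not tested.

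Vegfa, Adm and Angptl4 are known hypoxia-inducible genes, and other genes of that response were read on the same arrays. Of the 17 measured hypoxia-inducible genes, 0 were called higher or lower, with a median log2 ratio of -0.16 and a range from -0.76 to 0.68. The largest ratios were those of Ddit4, a stress-induced inhibitor of mTOR signalling (198 in Ebf2-/- cells, against 336 in Ebf2+/- cells), Car9, a carbonic anhydrase (44.9 in Ebf2-/- cells, against 75.3 in Ebf2+/- cells), and Bnip3, a mitophagy receptor (392 in Ebf2-/- cells, against 646 in Ebf2+/- cells), all lower in Ebf2-/- cells by less than 2-fold. Of 7 measured genes of oxygen sensing, 0 were 2-fold higher or lower (median 0.14). Hif1a, the oxygen-regulated subunit, named here after its value was seen, had 1093 in Ebf2-/- cells, against 1187 in Ebf2+/- cells. The upper end of the hypoxia-inducible range was P4ha2, 1.60-fold higher in Ebf2-/- cells and also named after its value was seen. The part of hypoxia in the Adm and Angptl4 signals was not tested.

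**Figure D4:**
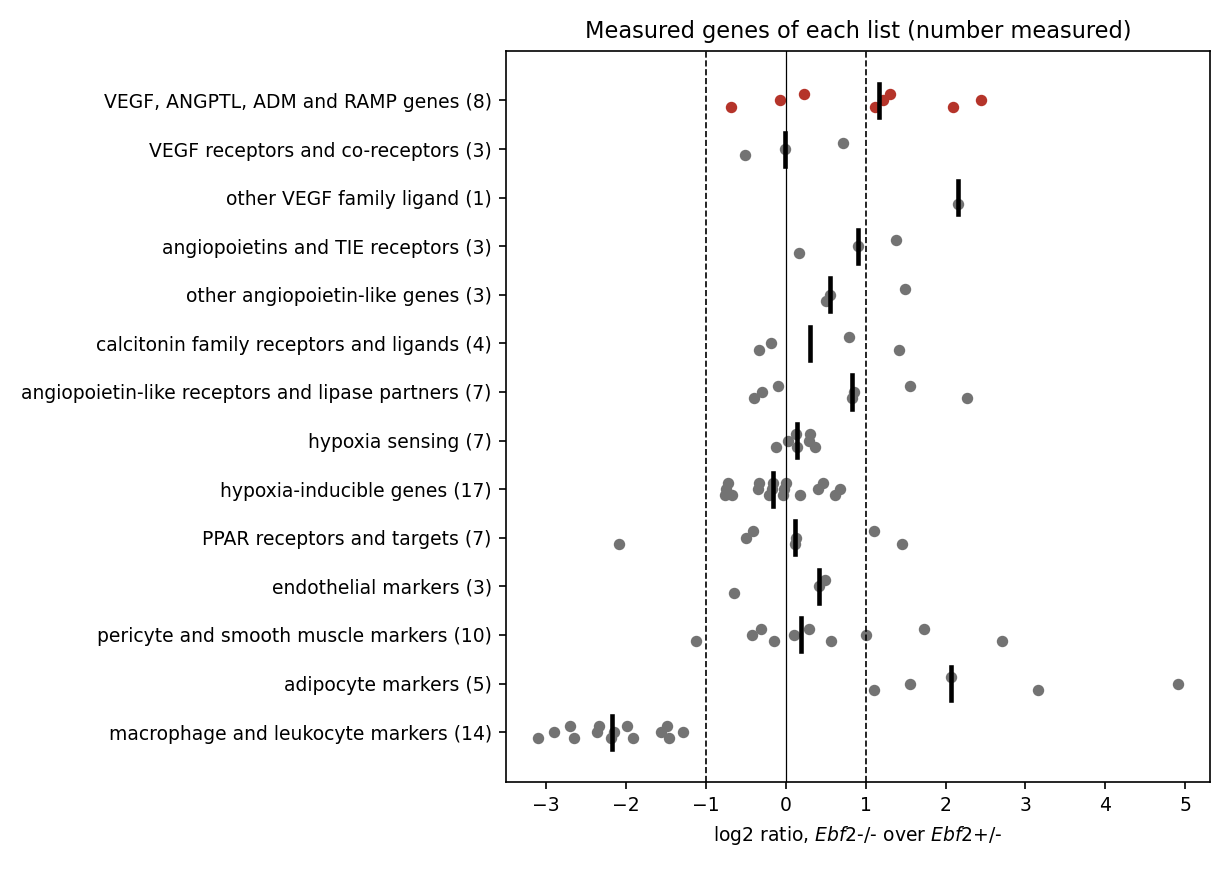
Log2 ratio of Ebf2-/- over Ebf2+/- (horizontal axis) for the measured genes of each list (1 point per gene, black bar at the median, number measured in brackets, dashed lines at 2-fold); genes above the floor on 1 array only are drawn at their floor-set value. The 8 genes described here have their median at 1.17, the hypoxia-inducible genes at -0.16, and the macrophage and leukocyte markers lie entirely below -1.

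Several features of the arrays touch all of these values. Ebf2 itself was near the floor on both arrays by its 3 probe sets (14.4 to 25.1 in Ebf2-/- cells, against 13.7 to 24.9 in Ebf2+/- cells), so it does not check the labels. Osteoblast markers were in part at background: Col1a1, Col1a2, Sparc, Sp7 and Alpl were measured, while Ibsp, Dmp1, Phex and Ifitm5 were below the floor on both arrays. Of the 5 measured, 2 were called higher in Ebf2-/- cells (Col1a1 2.33-fold, Alpl 2.04-fold) and 0 lower. The median log2 ratio was 0.80, and Sp7 was 1.57-fold lower. The part of osteoblasts in the ratios above was not tested. All 14 measured macrophage and leukocyte markers of 15 were at least 2-fold lower in Ebf2-/- cells (summed signal 2155 in Ebf2-/- cells, against 8961 in Ebf2+/- cells), as were 7 of 11 measured chondrocyte markers and 4 of 5 Schwann cell markers, and their part in the ratios above was not tested. RNA integrity can be read from the 3′ over 5′ signal ratio of control genes, which was 2.79 in Ebf2-/- and 1.97 in Ebf2+/- cells for beta-actin. Scaling to the spike-in transcripts lowers every log2 ratio by 0.18. Under it, all measured genes split into 528 higher and 625 lower by 2-fold, against 742 and 408 as deposited, and 4 of the 8 genes described here were at least 2-fold higher.

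**Figure D5:**
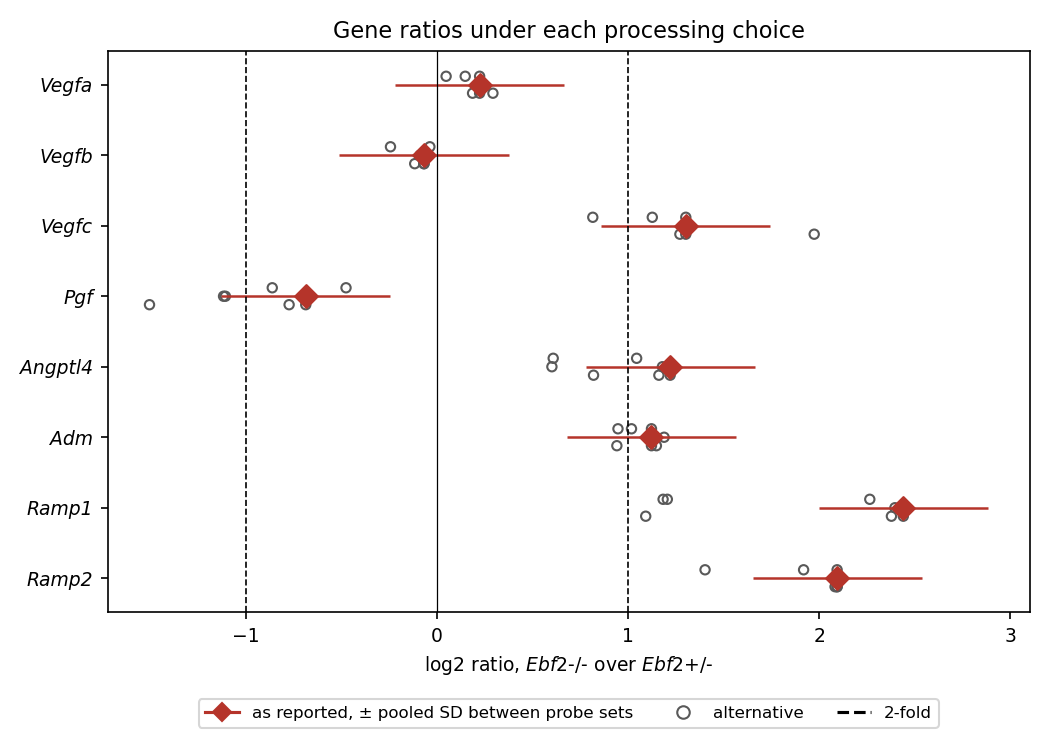
Log2 ratio of Ebf2-/- over Ebf2+/- (horizontal axis) for the 8 measured genes as reported (red diamonds, with a bar of 1 pooled SD between probe sets, 0.44, to each side) and under each alternative processing (open circles); dashed lines mark 2-fold. Ramp1 and Ramp2 stay to the right of the 2-fold line in all 10 settings, while Vegfc, Angptl4 and Adm cross it in some and Vegfa and Vegfb stay within 2-fold in all. For Ramp2, settings of the floor or the probe set rule could not move the ratio. For Ramp1, the mean over probe sets enters those below the floor on both arrays at the ratio of the floors, 23.8 over 17.8. Its place beyond the 2-fold line in that setting therefore depends on the floors.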

How the data were processed

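RNA of sorted Ebf2-/- and Ebf2+/- cells was hybridized to 1 array each, and groups were taken from the genotype label. The values deposited by the authors are MAS5 signals, one linear intensity per probe set, 45101 in all. The name MAS5 is from the submitters' processing notes, without a version. Without the lowest and highest 2% of values, the mean was 100.001 on both arrays, so the arrays had been scaled to one target, which hides any shift common to most genes. Symbols came from the platform annotation: 34958 probe sets had 1 symbol, 932 several and 9211 were not listed. Through the gene ID 0 symbols changed.

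The floor, the representative probe set and the 2-fold size are given with the results. No fold is given for genes measured on 1 array at a signal no higher than the other array's floor (609 genes). The members and the 18 companion lists (165 genes, 151 with a probe set) were chosen with earlier results of these data known. The genes named were the members, up to 3 measured genes with the largest ratio from each list, and the direct receptors. Other genes, most of them named as below the floor, were singled out after their values were seen. The alternatives were quantile, lowess (span 0.3) and spike-in scaling (18 probe sets, log2 ratio 0.18 ± 0.15, SD over probe sets), other floors, a pseudocount of 50 and other probe set rules. The steps were tested on simulated data, with large differences in genes well above the floor on both arrays. The simulation did not cover calls close to 2-fold or dim signals. Python 3.11.15, pandas 2.3.3 and statsmodels 0.14.6 were used.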

Additional observations from a re-analysis of the deposited data

How the results depend on the processing

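Across the 9 alternatives, 60 of 69 gene ratios moved by less than the SD between probe sets of one gene (0.44), and 9 moved by more. Some of the 60 could not move at all. Another floor does not touch a gene above it on both arrays, and a probe set rule can leave a gene's ratio as it is. With a pseudocount of 50, 3 of the genes were at least 2-fold higher (280 higher and 134 lower over all genes), their median log2 ratio was 0.71, and the log2 ratios were 0.82 for Vegfc, 0.61 for Angptl4, 1.21 for Ramp1 and 1.40 for Ramp2. As a mean over probe sets, 3 were higher (241 genes lower in all), with 1.97 for Vegfc and 1.09 for Ramp1. This mean enters probe sets below the floor on both arrays at the ratio of the floors, 23.8 over 17.8. The values of Ramp1 and Angptl4 in this setting therefore depend on the floors. With a floor of 50, added after the data were seen because the array medians lay under the receptor floor, 420 genes were higher and 245 lower in all, with 0.60 for Angptl4 and 1.18 for Ramp1. With no floor, 932 genes were lower in all and Pgf was at -1.50. Pgf was the 1 gene called lower without a floor, under lowess scaling and with the median of each array as floor (which lies under the receptor floor). Spike-in scaling left 625 genes lower in all. None of the gene ratios changed sign.

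Of 128 list medians under the alternatives, 116 moved by less than 0.44. The endothelial median has no settled sign: it was -0.65 with no floor, -0.26 with a pseudocount of 50 and 0.41 with the floor, the last being the floor-set value of Sox17, for which no fold is given. No paired analysis was possible because each genotype has 1 array. For the same reason no array could be left out, and no value has a replicate check. Dim signals limit Ramp1, Angptl4, Pgf and Calcrl, each near the floor on at least 1 array.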
